A study of Bos taurus with 7 samples.

Results

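The glutathione transferases and glutathione peroxidases examined here were 9 genes, the transferases GSTA1, GSTA4, GSTP1, GSTO1 and GSTM3 and the peroxidases GPX1, GPX3, GPX4 and GPX8. They were chosen by name, with earlier results of these data known. The values of all RefSeq transcripts paired with each symbol were summed, so that 9 of 23704 genes in the transcript tables were members. RNA sequencing of bovine preantral follicles was available for 7 libraries, of which 4 held primary follicles (PF) and the other 3 held secondary follicles (SF). PF are oocytes with a single layer of cuboidal granulosa cells, and early SF have more than one layer. All libraries were made from untreated follicles of Holstein Friesian dairy cows, isolated by size from abattoir ovaries and collected at T0, after a short recovery in a medium with insulin, transferrin, selenite and FSH. Each library was a pool of follicles of 1 stage, so that differences between follicles within a library are not seen, and p-values measure the spread between pools.

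Glutathione transferases join the tripeptide glutathione to reactive electrophiles, and several of them also bind or convert steroids and lipid peroxides. Glutathione peroxidases use glutathione to reduce hydrogen peroxide and lipid hydroperoxides, and GPX1, GPX3 and GPX4 carry selenocysteine in the active site, whereas GPX8 does not. In the ovary, both families are known for limiting oxidative damage in the oocyte and in the steroid-producing cells around it.

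The libraries held between 18788105 and 23764615 estimated counts. Summed levels of marker genes separated the groups and set 1 library apart. The 19 oocyte markers found in the files summed to 2924 to 5940 TPM (a library's transcript abundances scaled for transcript length to a fixed total) in PF replicates 1 to 3, 246 to 2054 TPM in SF and 508 TPM in PF replicate 4. The 18 granulosa markers summed to 848 to 1588 TPM, 2250 to 3798 TPM and 1971 TPM, respectively. PF replicate 4 also held 6194 TPM of stromal fibroblast markers and 1519 TPM of theca markers, against at most 634 and 418 TPM in any other library. Smooth muscle and pericyte markers summed to 1038 TPM there, against at most 261 TPM elsewhere. It was left out of the tests, as in the study, and its values are given beside those of the members and of the other genes called. No oocyte marker was at 0 in all PF or in all SF libraries tested, and IHH was the only granulosa marker at 0 in all tested PF libraries. In such pooled follicles, fewer cells of a type and less RNA per cell cannot be told apart.

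Of the 9 members, GSTA1, GSTA4 and GPX1 were higher in SF than in PF and GSTM3 was lower. GSTA1 rose from 1360 ± 388 TPM (SD, n = 3) to 4647 ± 632 TPM, and GPX1 from 804 ± 360 to 2249 ± 239 TPM. GSTM3, the highest transferase on average in PF at 1989 ± 628 TPM, fell to 575 ± 234 TPM in SF. GSTO1, GPX3, GPX4 and GPX8 did not pass the test, and GSTP1 received no adjusted p. Calls were made with the Wald test of DESeq2 on 3 PF and 3 SF libraries at a Benjamini-Hochberg adjusted p below 0.05 over all genes. In that fit, 8.14% of the 15056 genes with an adjusted p were higher in SF, 11% were lower and 19.1% were called in either direction. The median log2FC (log2 fold change, SF over PF) of the 9 members was 0.92, with 6 above and 3 below 0, against a median of 0.023 over all genes tested. The 3 PF and 3 SF libraries did not overlap in TPM for 7 of the 9 members, and for 32.7% of all genes with an adjusted p. Since the members were chosen with earlier results of these data known, these comparisons with all genes describe the list and test nothing.

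**Figure D1:**
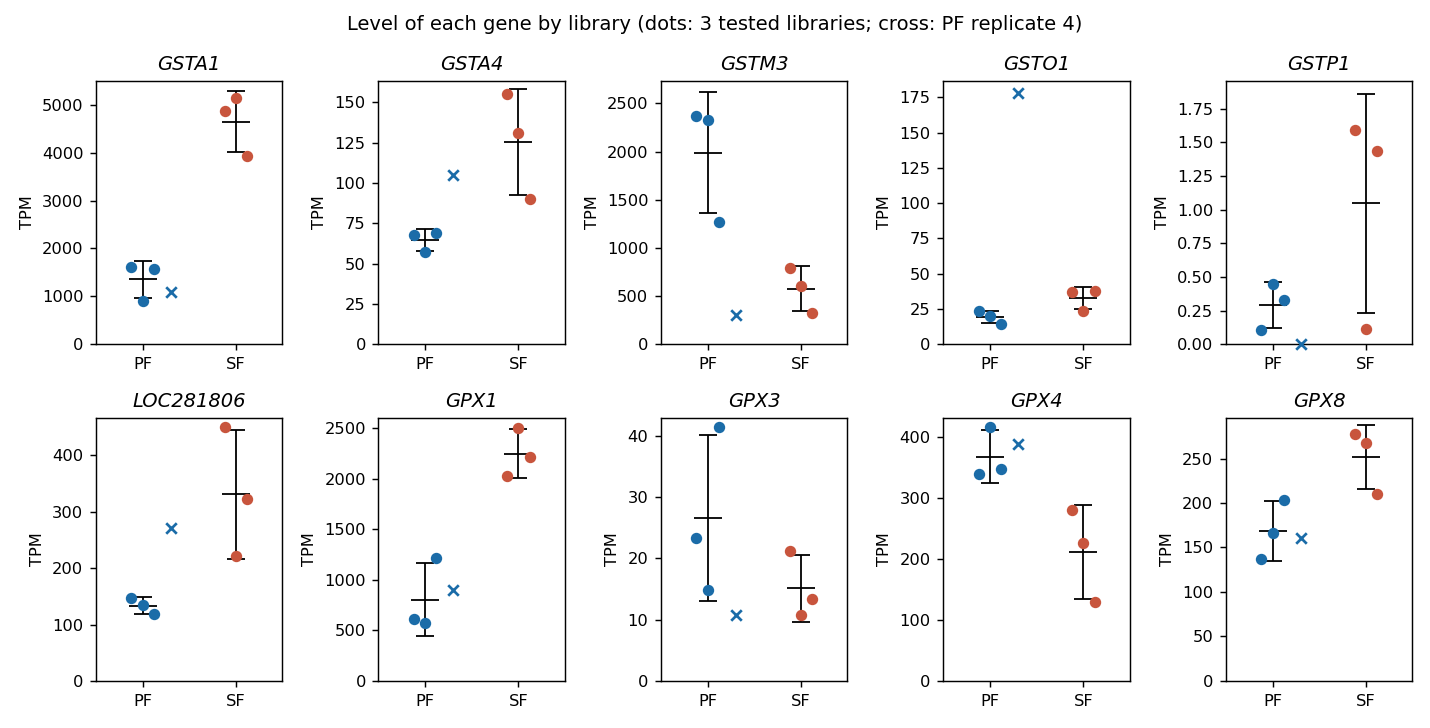
TPM of each member, and of LOC281806, in PF and SF. Dots are the 3 tested libraries of a group, horizontal bars with whiskers are their mean ± SD, and the cross is PF replicate 4. The axis of each panel starts at 0. GSTA1 and GPX1 stood higher in the 3 SF libraries than in any PF library, GSTM3 stood lower in SF than in the 3 tested PF libraries, and PF replicate 4 stood far above the other libraries for GSTO1.

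In PF, the members ran from GSTM3 and GSTA1 through GPX1, GPX4 (367 ± 42.8 TPM), GPX8 (169 ± 33.3 TPM), GSTA4 (64.7 ± 6.69 TPM), GPX3 (26.5 ± 13.5 TPM) and GSTO1 (19.3 ± 4.38 TPM) to GSTP1. Library ranges of GSTM3 and GSTA1 overlapped, as did those of GSTA1 and GPX1 and those of GPX3 and GSTO1. In SF, the order was GSTA1, GPX1, GSTM3, GPX8 (252 ± 36.2 TPM), GPX4 (211 ± 76.6 TPM), GSTA4 (125 ± 33.0 TPM), GSTO1 (32.6 ± 7.97 TPM), GPX3 (15.1 ± 5.47 TPM) and GSTP1. There, GPX8 overlapped GPX4, and GPX4 overlapped GSTA4. TPM is scaled for transcript length, so that these levels can be set against each other within a library.

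GSTA1 is an alpha class transferase that conjugates electrophiles and reduces organic hydroperoxides. Its level was 1604, 913 and 1562 TPM in PF replicates 1, 2 and 3 and 1084 TPM in PF replicate 4. In SF replicates 1, 2 and 3 it was 4864, 5141 and 3935 TPM. Each SF library stood above each of the 4 PF libraries. The log2FC was 1.87 ± 0.36 (SE), with a DESeq2 adjusted p of 1.2e-05. GSTA1 was the 6th, 13th and 17th most abundant gene in the SF libraries and between the 40th and the 125th in the PF libraries.

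The reads of GSTA1 were spread over 3 transcript models in the files. The curated model of 863 bases held 53.4 to 76.5% of the gene's TPM, a predicted model of 689 bases held 23.3 to 45.8% and a predicted model of 496 bases held at most 0.76%. In both SF replicate 3 and PF replicate 1, the curated model held more than 70% (76.5 and 70.7%), so that the split did not separate the stages. Another model listed for the gene in the reference table was absent from the quantified transcripts, as was 1 model each of GSTA4 and GSTP1.

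GSTA4, the alpha class member known for clearing the lipid peroxidation product 4-hydroxynonenal, stood far below GSTA1. It measured 67.8, 57.0 and 69.2 TPM in the tested PF libraries and 105 TPM in PF replicate 4. The SF libraries measured 155, 131 and 89.9 TPM. The tested groups did not overlap, but PF replicate 4 lay above SF replicate 3. The log2FC was 1.04 ± 0.34 (adjusted p = 0.015 by DESeq2). The call was lost without PF replicate 1 (adjusted p = 0.091), PF replicate 2 (0.10), SF replicate 1 (0.077) or SF replicate 2 (0.080), and with all 7 libraries (0.27).

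Alpha class genes lie next to each other on chromosome 23 in the reference table, in the order GSTA2, GSTA1, GSTA5, GSTA3 and GSTA4 with a long noncoding RNA before GSTA3, and similar copies may share reads. GSTA2 was higher in SF too, with 47.8, 43.4 and 11.6 TPM in the tested PF libraries, 36.3 TPM in PF replicate 4 and 109, 105 and 121 TPM in SF (log2FC 1.89 ± 0.52, DESeq2 adjusted p = 0.0034). GSTA5 averaged 8.26 TPM in PF and 20.5 TPM in SF and did not pass (adjusted p = 0.11). With all alpha class genes counted as 1 feature, the log2FC was 1.82 (adjusted p = 5.8e-06), close to that of GSTA1, which held most of the class.

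GSTM3 belongs to the mu class. It measured 2371, 2332 and 1264 TPM in PF replicates 1 to 3, but 306 TPM in PF replicate 4. In SF it measured 791, 607 and 327 TPM. The 3 tested PF libraries lay above all SF libraries, whereas PF replicate 4 lay below them. The log2FC was -1.66 ± 0.39 (DESeq2 adjusted p = 6.2e-04), and the call held when any 1 of the 6 libraries was left out, with adjusted p from 1.6e-05 to 0.014. With all 7 libraries it was -1.35 and did not pass (adjusted p = 0.21).

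The mu class genes LOC327709 and LOC783879, which carry GSTM1 among their synonyms, lie near GSTM3 on chromosome 3 and behaved unlike it. LOC327709 averaged 50.2 TPM in PF and 75.1 TPM in SF (adjusted p = 0.29 by DESeq2), LOC783879 averaged 22.5 and 20.5 TPM, and GSTM2 averaged 10.6 and 10.4 TPM. Summed as 1 feature, GSTM3, GSTM2, LOC327709 and LOC783879 had a log2FC of -1.3 (adjusted p = 0.0016 by DESeq2). The protein-coding genes LOC615514, LOC100295687 and LOC107132300 lie among them and were not examined.

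GSTP1, of the pi class, was close to 0 under its symbol. Its 4 transcript models, all predicted, held 1, 4 and 3 estimated counts in the tested PF libraries, 0 in PF replicate 4 and 17, 1 and 13 in SF. These counts gave no adjusted p. The gene next to it on chromosome 29, LOC281806, has GSTP1 as a synonym and a curated transcript. LOC281806 measured 147, 135 and 119 TPM in PF replicates 1 to 3, 271 TPM in PF replicate 4 and 450, 222 and 322 TPM in SF. Its log2FC was 1.45 ± 0.38 (DESeq2 adjusted p = 0.0022), and it did not pass with all 7 libraries (1.02, adjusted p = 0.21). Nearly all pi class reads thus stood under LOC281806, and the symbol GSTP1 alone does not describe the level of this class.

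GSTO1, of the omega class, reduces dehydroascorbate and removes glutathione from proteins. It measured 23.2, 20.1 and 14.6 TPM in the tested PF libraries and 37.0, 23.4 and 37.4 TPM in SF. The groups did not overlap, although the highest PF library and the lowest SF library were almost level. The log2FC was 0.92 ± 0.43 and did not pass (DESeq2 adjusted p = 0.12). PF replicate 4 measured 178 TPM, and with this library in the fit the log2FC turned to -0.87.

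The make-up of the cytosolic transferases therefore differed between the stages. The summed TPM of those listed was 3751 ± 598 in PF and 6053 ± 874 in SF. GSTA1 held 36.5, 25.0 and 48.6% of the sum in PF replicates 1 to 3, 52.1% in PF replicate 4 and 73.1, 79.7 and 77.9% in SF. GSTM3 held 53.9, 64.0 and 39.4%, then 14.7%, and 11.9, 9.40 and 6.47%. The ratio of GSTA1 to GSTM3 within a library, which does not depend on the scaling between libraries, was 0.677, 0.391 and 1.24 in the tested PF libraries, 3.54 in PF replicate 4 and 6.15, 8.47 and 12 in SF. No test was made of these shares and ratios, since they were formed after the levels had been seen.

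**Figure D2:**
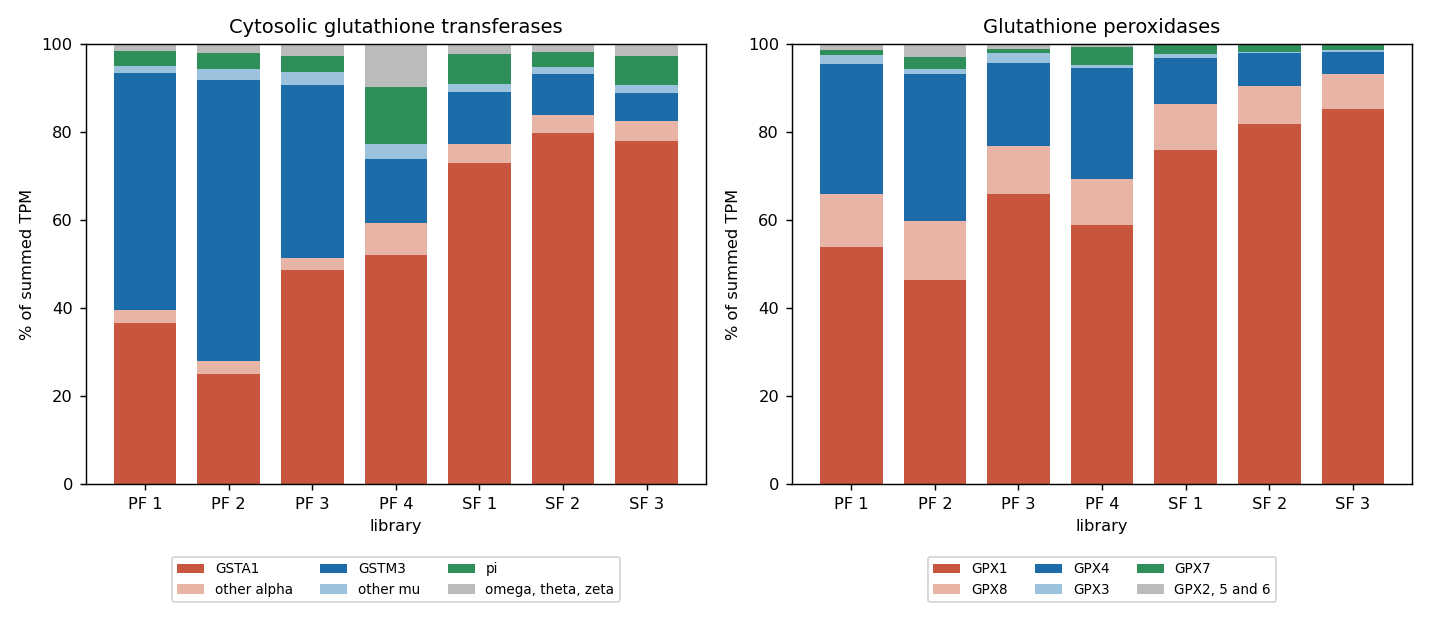
Share of each gene or class in the summed TPM of the cytosolic glutathione transferases (left) and of the glutathione peroxidases (right), in % per library. GSTA1 took up 73.1 to 79.7% of the transferase sum in SF and GPX1 76.0 to 85.1% of the peroxidase sum, and PF replicate 4 stood between the other PF libraries and SF for the share of GSTA1.

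GPX1, the cytosolic selenoenzyme that reduces hydrogen peroxide, measured 616, 577 and 1220 TPM in PF replicates 1 to 3 and 903 TPM in PF replicate 4. In SF it measured 2025, 2501 and 2220 TPM. All 3 SF libraries lay above all 4 PF libraries, and PF replicate 3 lay between the other tested PF libraries and SF. The log2FC was 1.53 ± 0.46 (DESeq2 adjusted p = 0.0090). It also passed with all 7 libraries (1.44, adjusted p = 0.029), but the call was lost without PF replicate 1 (adjusted p = 0.068), PF replicate 2 (0.070) or SF replicate 2 (0.060).

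GPX4, which reduces peroxidised phospholipids within membranes, had 339, 417 and 346 TPM in PF replicates 1 to 3, 388 TPM in PF replicate 4 and 280, 226 and 129 TPM in SF. All SF libraries lay below all PF libraries. The log2FC of -0.71 ± 0.36 did not pass (DESeq2 adjusted p = 0.16), but did without SF replicate 1 (adjusted p = 0.036). Of its 3 models, the one of 939 bases held 95.8 to 100% of the TPM in each library.

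GPX8, a peroxidase of the endoplasmic reticulum, had 137, 166 and 203 TPM in the tested PF libraries, 160 TPM in PF replicate 4 and 278, 268 and 211 TPM in SF. The stages did not overlap, but PF replicate 3 and SF replicate 3 were close. The log2FC of 0.65 ± 0.35 did not pass (adjusted p = 0.18 by DESeq2), and passed without PF replicate 3 (adjusted p = 0.0084). GPX3, the secreted plasma peroxidase, had 23.4, 14.8 and 41.3 TPM in PF replicates 1 to 3, 10.7 TPM in PF replicate 4 and 21.2, 10.7 and 13.4 TPM in SF. Its groups overlapped and its log2FC was -0.75 ± 0.60 (adjusted p = 0.41).

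The summed TPM of all peroxidases was 1413 ± 382 in PF and 2778 ± 247 in SF. GPX1 held 55.4 ± 9.89% of it in PF and 80.9 ± 4.65% in SF, and GPX4 held 27.3 ± 7.64% and 7.60 ± 2.79%. The ratio of GPX1 to GPX4 was 1.82, 1.39 and 3.52 in PF replicates 1 to 3, 2.33 in PF replicate 4 and 7.24, 11.1 and 17.3 in SF. As with the transferases, the lowest SF ratio lay above the highest PF ratio, and no test was made. In the tested libraries both separations follow from the levels of GSTA1, GSTM3, GPX1 and GPX4, none of which overlapped between the groups.

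Among the other 23 transferase and peroxidase genes in the files, 22 had an adjusted p, of which 3 were higher, 1 was lower and 18 did not pass. GPX6 was the lower one, with 13.8, 32.4 and 19.9 TPM in PF replicates 1 to 3, 9.40 TPM in PF replicate 4 and 0.98, 0 and 0.84 TPM in SF. Its fitted log2FC was -5.02 ± 1.05 (DESeq2 adjusted p = 8.2e-05), from SF counts of 21, 0 and 16. GPX7, a second peroxidase of the endoplasmic reticulum, had 11.7, 35.2 and 17.5 TPM in the tested PF libraries and 59.2, 54.4 and 33.7 TPM in SF, which overlapped, and PF replicate 4 lay above them all at 62.7 TPM (adjusted p = 0.069).

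The other genes higher in SF were GSTA2, LOC281806 and GSTZ1, the last of them below 10 TPM on average in both groups and at 0.90 TPM in PF replicate 4. GSTZ1 (DESeq2 adjusted p = 0.046) was at 17.9 TPM in SF replicate 1, but at 3.84 and 4.74 TPM in SF replicates 2 and 3. The tested PF libraries reached at most 2.60 TPM. Of the mitochondrial and membrane transferases, none passed among the 6 with an adjusted p. MGST3 averaged 184 TPM in PF and 180 TPM in SF, MGST2 averaged 25.3 and 33.3 TPM, and GSTK1 averaged 20.2 and 23.1 TPM. GSTT1, of the cytosolic theta class, averaged 51.7 and 89.9 TPM (adjusted p = 0.078 by DESeq2).

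The pattern of GSTM3 across libraries was close to that of the oocyte markers. In descending order of summed oocyte marker TPM the libraries were PF replicates 1, 2 and 3, SF replicates 1 and 2, PF replicate 4 and SF replicate 3. GSTM3 gave the same order except that the last pair changed places. Per summed oocyte marker TPM, GSTM3 was 0.399, 0.428 and 0.432 in PF replicates 1 to 3, 0.603 in PF replicate 4 and 0.385, 0.378 and 1.33 in SF. Of the 19 oocyte markers, 13 were lower in SF, 0 were higher and the median log2FC was -1.89. The part of oocyte RNA content in the GSTM3 difference was not tested.

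GSTA1 and the summed granulosa markers were both higher in SF than in PF, but GSTA1 did not follow this sum within a stage. Within SF, the library with the highest sum (SF replicate 3) had the least GSTA1. Within PF, the library with the highest sum (PF replicate 4) had less GSTA1 than PF replicates 1 and 3. That library ranked first through KRT8 alone. Without KRT8, PF replicate 1, which had the most GSTA1 of the PF libraries, would have had the highest sum. Single markers of the list differed in direction in these libraries. KRT8 was at 637 TPM in SF replicate 3, against 21.1 and 23.4 TPM in SF replicates 1 and 2. INHA was also highest there at 1836 TPM, against 1522 and 1023 TPM. NR5A1 was lowest there at 64.1 TPM, against 88.9 and 91.5 TPM, and so was FOXL2 at 81.5 TPM, against 189 and 126 TPM. In PF replicate 4, KRT8 was at 591 TPM, against at most 67.8 TPM in PF replicates 1 to 3. NR5A1 (39.6 TPM) and GATA4 (138 TPM) were also highest there among PF, against at most 31.5 and 106 TPM. FOXL2 was at 31.2 TPM there, against 52.7 TPM or more, and WNT6 at 40.1 TPM, against 94.5 TPM or more. Other markers of the list went either way. Per summed granulosa marker TPM, GSTA1 was 1.01, 0.690 and 1.84 in the tested PF libraries, 0.550 in PF replicate 4 and 1.76, 2.29 and 1.04 in SF, so that the groups overlapped. The same quotient for GPX1 was 0.388, 0.437 and 1.44 in PF, 0.458 in PF replicate 4 and 0.731, 1.11 and 0.585 in SF, which overlapped too. Of 16 granulosa markers with an adjusted p, 8 were higher in SF and 1 was lower, with a median log2FC of 1.57 over all 18. The part of granulosa cell content in these differences was not tested.

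**Figure D3:**
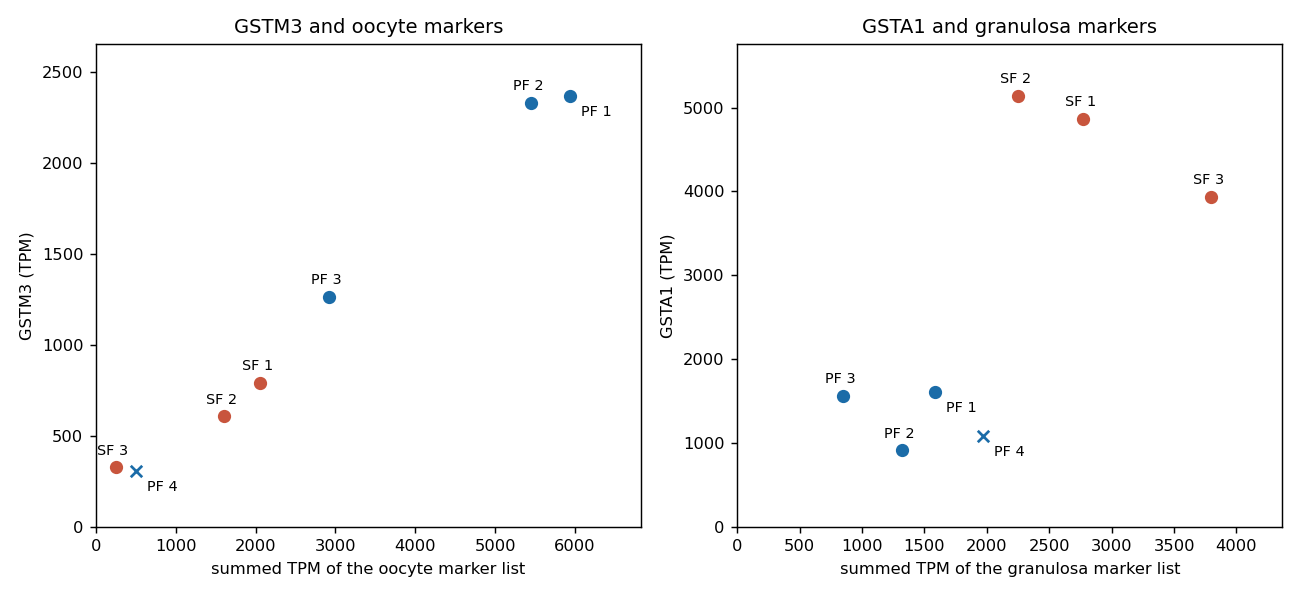
GSTM3 against the summed TPM of the oocyte marker list (left) and GSTA1 against that of the granulosa marker list (right), both in TPM on linear axes, 1 point per library (blue PF, red SF, cross PF replicate 4). GSTM3 and the oocyte sum fell together from PF replicate 1 to the pair of lowest libraries, whereas PF replicate 4 had more granulosa marker TPM (1971) than the other PF libraries and less GSTA1 (1084 TPM) than 2 of them. KRT8 held 591 TPM of the granulosa sum in PF replicate 4, and without it PF replicate 1 would have the highest PF sum.

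The direction of several members depended on the genes to which the libraries were scaled. With size factors taken from the oocyte markers alone, the median log2FC of all genes became 2.62, and GSTM3 turned to 0.71 ± 0.80 (adjusted p = 0.45 by DESeq2), below that median. With size factors from the granulosa markers, the median of all genes became -1.46. GSTA1 was then 0.40 ± 0.54 (adjusted p = 0.56), GPX1 was 0.03 ± 0.57 (0.97), GSTA4 turned to -0.36 and GPX8 to -0.77, while GSTM3 (-2.98), GPX4 (-2.05) and GPX3 (-2.21) were called lower. In each of these scalings GSTA1 and GPX1 lay above, and GSTM3 and GPX4 below, the median of all genes. A scaling moves all genes of a library together, so that these places could hardly change.

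**Figure D4:**
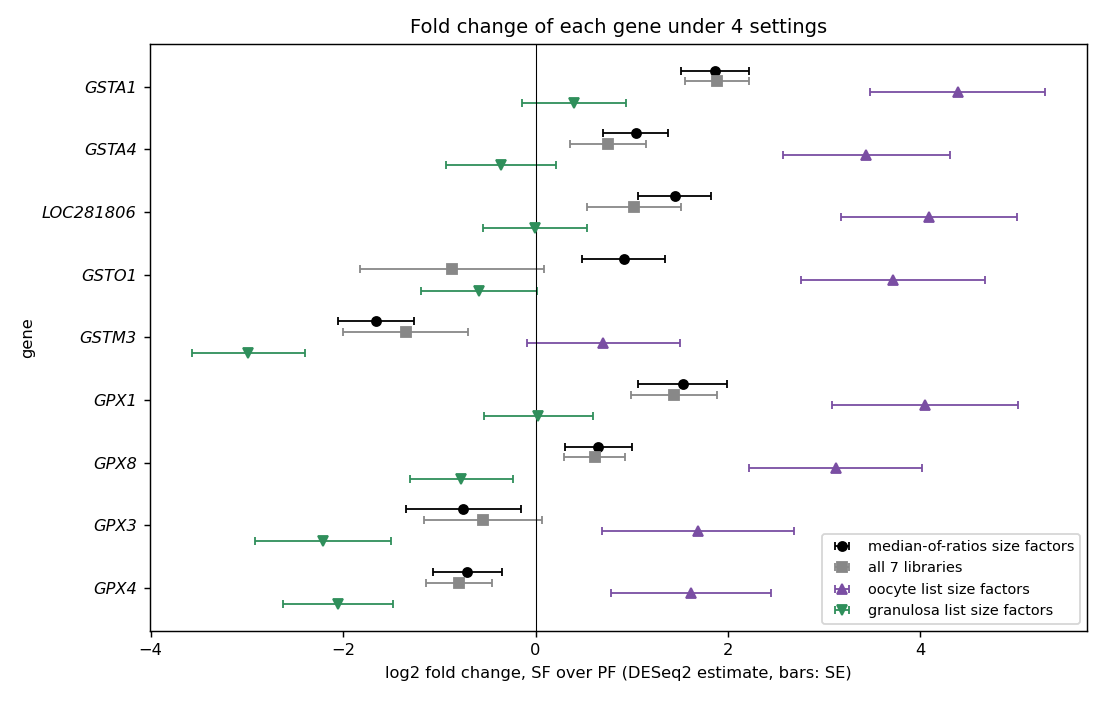
Fitted log2FC (SF over PF) of the members other than GSTP1, and of LOC281806, with SE, under median-of-ratios size factors, with all 7 libraries, and with size factors from the oocyte or the granulosa marker list. GSTM3 moved from -1.66 to 0.71 under oocyte scaling and to -2.98 under granulosa scaling, and GSTA1 from 1.87 to 4.39 and 0.40.

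Tests other than DESeq2 called fewer genes. The quasi-likelihood test of edgeR called 0 members and 0% of all genes (0 of 14293, with 3844 at an unadjusted p below 0.05 and 4800 by DESeq2), with adjusted p of 0.052 for GSTA1, 0.056 for GSTM3, 0.067 for GSTA4 and 0.081 for GPX1. The test of limma on log2(TPM + 1) called 6.02% of all genes and kept GSTA1 (adjusted p = 0.042), GPX1 (0.043) and GSTM3 (0.044), but not GSTA4 (0.087). With all 7 libraries, DESeq2 called 5.82% of all genes, among them GSTA1 and GPX1 and no other member.

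Library numbers in the labels fell into a lower range (PF replicates 1 and 2, SF replicate 1) and a higher one (PF replicate 3, SF replicates 2 and 3, with PF replicate 4). Within the lower range, the difference of mean log2(TPM + 1), SF minus PF, was 2.01 for GSTA1, 1.76 for GPX1, 1.3 for GSTA4 and -1.57 for GSTM3. Within the higher range, without PF replicate 4, it was 1.52, 0.95, 0.64 and -1.5. Each range holds 1 or 2 libraries a group, and no test was run within a range. The tested PF and SF libraries did not overlap for these 4 genes. Their signs therefore had to be the same in both ranges and tell nothing about the ranges. With the range as a covariate in the DESeq2 fit of the 6 libraries, the same 4 members were called, with adjusted p of 5.4e-06 for GSTA1, 8.1e-06 for GSTM3, 4.0e-04 for GPX1 and 0.027 for GSTA4.

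The other genes of glutathione and peroxide metabolism were taken from a list of 58, of which 56 were in the files and had an adjusted p. Of these, 8 were higher in SF, 5 were lower and 43 did not pass, with a median log2FC of 0.069. These 13 of 56 genes were a share near that of all genes.

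Of the 7 genes of cystine uptake and glutathione synthesis, 2 were higher and 0 lower. SLC7A11, the cystine transporter, rose from 1.03 ± 0.71 to 8.24 ± 2.03 TPM (log2FC 3.20 ± 0.54, DESeq2 adjusted p = 6.6e-07), with 0.97 TPM in PF replicate 4. GCLC, the catalytic subunit of the rate-limiting enzyme of glutathione synthesis, rose from 28.5, 36.5 and 47.6 TPM to 92.3, 123 and 161 TPM (1.82 ± 0.44, adjusted p = 7.5e-04), with 58.8 TPM in PF replicate 4. Its regulatory partner GCLM averaged 43.8 and 32.7 TPM and did not pass (adjusted p = 0.52). SLC3A2, the partner chain of SLC7A11, averaged 252 and 312 TPM (0.56).

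Genes of glutathione reduction and the glutaredoxins changed in both directions, with 2 higher and 2 lower of 10. GSR, which regenerates reduced glutathione, fell from 121, 103 and 77.8 TPM to 36.4, 36.8 and 13.9 TPM (log2FC -1.70 ± 0.41, DESeq2 adjusted p = 8.6e-04), with 29.5 TPM in PF replicate 4. GLRX, a glutaredoxin, fell from 149, 104 and 43.0 TPM to 31.2, 15.6 and 10.4 TPM (-2.21 ± 0.56, adjusted p = 0.0015), with 17.5 TPM in PF replicate 4. For both genes PF replicate 4 lay within the SF range. TXNRD1 and TXNIP, the reductase and the inhibitor of thioredoxin, were higher, TXNRD1 with 25.4 and 60.3 TPM (adjusted p = 0.023) and TXNIP with 550 and 1197 TPM (0.0084). The groups overlapped for TXNRD1, whose PF replicate 1 (33.8 TPM) lay above SF replicate 1 (33.5 TPM), and PF replicate 4 lay above all SF libraries at 96.1 TPM. For TXNIP, PF replicate 4 lay below them all at 413 TPM. GLRX3 (298 and 193 TPM), GLRX5 (312 and 471 TPM), TXN (212 and 559 TPM) and TXN2 (165 and 154 TPM) did not pass.

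Among 9 genes of glutathione breakdown and export, GGT5 (27.7 and 8.49 TPM, DESeq2 adjusted p = 0.039) and the exporter ABCC1 (8.59 and 1.67 TPM, 0.0014) were lower and 0 were higher. PF replicate 4 held 0.79 and 0.33 TPM of them, below all SF libraries. LAP3 averaged 108 and 72.4 TPM and did not pass. Of 11 peroxiredoxins, superoxide dismutases and related enzymes, SOD3 alone passed (32.8 and 56.0 TPM, adjusted p = 0.033), with overlapping groups and 30.8 TPM in PF replicate 4. PRDX1 to PRDX6, CAT, SOD1 and SOD2 averaged above 100 TPM in at least 1 group and did not pass, with log2FC from -0.65 for SOD1 to 0.75 for PRDX4.

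Of 10 genes of selenoprotein synthesis and selenium supply, LRP8, a receptor for selenoprotein P, was higher (5.06 and 26.5 TPM, DESeq2 adjusted p = 0.0079) and TRNAU1AP, which acts in selenocysteine insertion, was lower (67.2 and 23.3 TPM, 0.047). SF replicate 3 held 57.7 TPM of LRP8, against 9.39 and 12.4 TPM in the other SF libraries, and PF replicate 4 held 2.17 TPM of LRP8 and 30.7 TPM of TRNAU1AP. Of 9 genes of NRF2 regulation, NFE2L2, which encodes NRF2 itself, rose from 41.2 to 95.6 TPM (1.3 ± 0.34, adjusted p = 0.0020), and KEAP1, its inhibitor, from 29.8 to 50.5 TPM (0.025). PF replicate 4 did not share the level of the other PF libraries for either gene. It held 95.6 TPM of NFE2L2, within the SF range of 91.5 to 98.4 TPM, and 68.5 TPM of KEAP1, above all SF libraries. Neither gene passed with all 7 libraries (adjusted p of 0.37 for NFE2L2 and 0.74 for KEAP1, and 0.75 for TXNRD1). HMOX1 (155 and 400 TPM) and MAFF (74.9 and 238 TPM) overlapped between groups and did not pass.

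**Figure D5:**
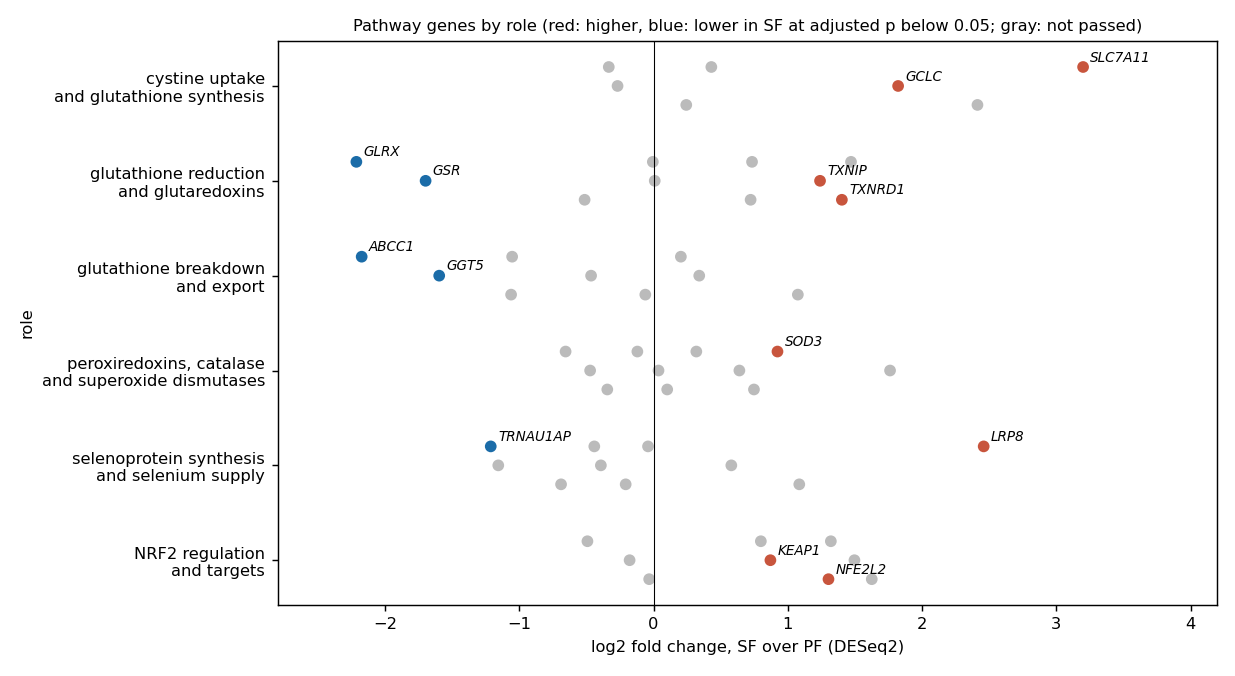
DESeq2 log2FC (SF over PF) of the 56 pathway genes with an adjusted p, by role, 1 point per gene, with red for higher, blue for lower and gray for not passed. The genes called ran from GLRX at -2.21 to SLC7A11 at 3.20, and gray points stood on both sides of 0 in each role. Points are offset vertically for legibility.

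For each member with 10 TPM or more, the genes with the nearest profile were found among 8128 genes by the root mean square difference of log2(TPM + 1), centred per gene, over 7 libraries. CPEB1, a regulator of mRNA translation, was nearest to GSTM3 at 0.082, followed by HAUS8 (0.136) and ARHGEF39 (0.145). RAP2A (0.138), SRGN (0.208) and IGDCC4 (0.240) were nearest to GSTA1, and LOC100848149 (0.192), PIP4P2 and PNRC1 to GPX1. GPX8 was nearest to SSH3 (0.082), ALDH7A1 and LOC327709, GPX4 to MTAP (0.108), HRAS and CNIH4, and GSTA4 to LHPP (0.123), LTBR and PON2. GSTO1 was nearest to SEPTIN9 (0.158), WNT11 and CAST, and GPX3 to SCGB1A1 (0.175), ITGB3BP and H2AC20.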

How the data were processed

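The authors isolated PF and SF from bovine ovaries, made cDNA with SMART-Seq v4, trimmed reads with Trim Galore and quantified RefSeq transcripts with Salmon, and deposited the estimated counts and TPM of 76123 transcripts per library. Of these, 50205 (66.0%) were paired with 23704 genes through a RefSeq table of another assembly, used for names and gene order alone, and the unmatched ones held 9.71 to 10.7% of counts. For each gene, the estimated counts of its transcripts were added up and rounded to whole numbers, and TPM was added up likewise. DESeq2 1.42.0 in R 4.3.3 compared PF replicates 1 to 3 with SF replicates 1 to 3, and edgeR 4.0.16, limma 3.58.1 (pseudocount 1), other scalings, filters and left-out libraries were alternatives. Summing used Python 3.11.15 with pandas 2.3.3. The scripts' tests were tested on simulated data. The members, marker lists and pathway list were chosen with earlier results of these data known. Named were all members, relatives with a mean of 10 TPM or more, pathway genes that passed or had a mean of 100 TPM or more, and the 3 nearest genes per member. Smaller values that qualify a result were named after they had been seen (GSTZ1, GCLM). No 2 libraries of a group agreed within sampling noise (chi-square per degree of freedom of 97.9 or more).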

Additional observations from a re-analysis of the deposited data

Results flagged for a closer look

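Dixon's criterion was applied to the 4 PF libraries for 10 genes, the members and LOC281806. GSTO1 in PF replicate 4, at 178.385 TPM, was the only value that stood apart, with a gap to the nearest library of 0.947 of the range, above the 95% critical value. Chance sets apart about 1 in 20 groups. The same library held 6194 TPM of stromal fibroblast, 1519 TPM of theca and 1038 TPM of smooth muscle and pericyte markers. The part of these cell types in the GSTO1 level was not tested.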

How the results depend on the processing

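The calls depended on the scaling, on the test and on PF replicate 4, and the causes were not tested. DESeq2 called 2876 genes (1226 higher and 1650 lower), 3 members higher, 1 member lower and 13 pathway genes. Size factors from the oocyte list gave 9061 genes (9023 higher, 38 lower), 6 members higher and 0 lower, and 39 pathway genes, and moved the median log2FC of all genes to 2.62. GSTM3 was then 0.71, GPX3 1.69 and GPX4 1.62, all still below that median. Such a place against the median can hardly change, since a scaling moves all genes of a library together. Size factors from the granulosa list gave 6371 genes (93 higher, 6278 lower), 0 members higher and 3 lower, and 27 pathway genes, and moved that median to -1.46. GSTA4 was then -0.36, GSTO1 -0.59 and GPX8 -0.77, all still above it. The test of edgeR gave 0 genes, 0 members and 0 pathway genes, with a smallest adjusted p of 0.0524. limma gave 792 genes and 5 pathway genes on log2(TPM + 1), 2 genes with 0 members and 0 pathway genes on log2(TPM + 0.1), and 0 of each without the filter on low values. All 7 libraries gave 858 genes, 0 members lower and 3 pathway genes, and GSTO1 turned to -0.87. Curated transcripts alone gave 1665 genes. Leaving out 1 library at a time gave 1887 to 3947 genes, 1 to 4 members higher, 1 to 2 lower and 7 to 16 pathway genes, with the fewest genes without PF replicate 2 and the most without PF replicate 3.

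The replicate block gave 4077 genes, 20 pathway genes and the same number of members (3 higher, 1 lower), and GPX7 then passed at 0.037. Same-numbered libraries deviated together with correlations of 0.256, -0.037 and 0.396, so that the numbers were not taken to pair samples, and not every library correlated best with its own number.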

Other observations

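Several pathway genes separated the libraries by the library number in the labels, while their stages overlapped. This pattern was noticed after the values had been seen and was not tested. HMOX1, the haem-degrading enzyme, measured 22.9, 49.7 and 120 TPM in the 3 libraries numbered below 40 and 394, 217, 484 and 596 TPM in the 4 above. MAFF, a small MAF protein, measured 1.34, 0.71 and 0.24 TPM below and 223, 162, 223 and 492 TPM above. TXN measured 123, 144 and 276 TPM below and 370, 702, 400 and 1001 TPM above. Within each range HMOX1 was higher in SF than in PF, and so was TXN without PF replicate 4, whereas MAFF was lower in SF below 40. In all, 7 of 56 pathway genes were higher without overlap in the libraries numbered above 40 and 5 were lower, which is 12.5 and 8.93%, against 5.39 and 6.89% of all genes with an adjusted p. None of the 8 members with an adjusted p separated in this way.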
